A study of Homo sapiens with 8 samples.

Results

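The AP-1 family was followed here through 8 genes, namely FOS, FOSB, FOSL1 and FOSL2, JUN, JUNB and JUND, and ATF3. They were chosen by name and make up 8 of the 60652 gene rows in each library. All 8 passed the filter on low counts and stand among the 16606 genes tested. Messenger RNA was sequenced from HEK293T cells, a human line derived from embryonic kidney, that carry a TRE3G-GFP reporter (green fluorescent protein behind a promoter with tet operator sites). Cells of all 4 groups were transfected with activator plasmids, which encode a VPR fusion, and guide plasmids, and a sort on mCherry and BFP followed 2 days later. The groups of 2 libraries each were dCasMINI-VPR with sgNT, dCasMINI-VPR with sgTet, dCas12a-VPR with crNT and dCas12a-VPR with crTet. dCasMINI and dCas12a are Cas proteins without cutting activity, VPR is the VP64-p65-Rta activation domain, and NT and Tet are read here as a non-targeting guide and a guide to the tet operator sites of the reporter. No group without an activator is part of the comparison, and the labels do not say whether the replicates came from separate transfections. The p-values therefore measure the spread between these libraries, which may be technical. In bulk RNA, a change in the number of expressing cells and a change in RNA per cell cannot be told apart.

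AP-1 is a transcription factor made of 2 basic leucine zipper proteins. JUN proteins pair with themselves or with a FOS protein, whereas FOS proteins need a JUN partner to bind DNA, at the sequence TGANTCA or at related sites. FOS, FOSB, JUN and JUNB are immediate early genes, which MAP kinase signals switch on within minutes through factors already present in the cell. Their transcripts are short-lived. JUND is made more steadily, FOSL1 and FOSL2 encode Fos-related proteins of later and longer expression, and ATF3 encodes a stress-induced relative that represses many promoters as a homodimer and can pair with JUN proteins.

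Promoters of members that moved in different directions are shown, chosen among those in which related letters recur. The windows of JUNB and of the second ATF3 start hold none of these letters beside a TATAAA and are not shown. That of JUND holds such letters and is not shown either. Capitals mark matches, on either strand within 250 bases upstream of the RefSeq start (GRCh38.p14), to the AP-1 motif TGANTCA, the CRE-like motif TGACNTCA, its shorter form TGACGT (which overlaps the former where the N is G) and the TATA box motif TATAAA. Only upstream bases outside GENCODE 29 exons are printed, and for JUN, whose window lies inside an exon of that annotation, a site of 30 bases.

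FOS (chr14:75278578-75278773, plus strand): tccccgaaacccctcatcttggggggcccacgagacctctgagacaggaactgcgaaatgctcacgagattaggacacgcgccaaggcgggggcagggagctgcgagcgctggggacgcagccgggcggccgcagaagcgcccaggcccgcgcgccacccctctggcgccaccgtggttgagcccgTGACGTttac
FOSB (chr19:45467746-45467994, plus strand): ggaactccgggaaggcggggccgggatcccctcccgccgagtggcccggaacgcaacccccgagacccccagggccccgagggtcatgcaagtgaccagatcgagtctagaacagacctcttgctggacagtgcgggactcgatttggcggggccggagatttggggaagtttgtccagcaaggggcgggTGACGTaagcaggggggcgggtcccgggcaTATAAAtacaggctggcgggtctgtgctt
FOSL2 (chr2:28392608-28392801, plus strand): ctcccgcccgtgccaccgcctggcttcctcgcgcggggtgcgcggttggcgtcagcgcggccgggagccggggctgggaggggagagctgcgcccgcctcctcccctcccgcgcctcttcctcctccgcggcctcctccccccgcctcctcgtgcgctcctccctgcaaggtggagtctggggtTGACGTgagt
JUN (chr1:58784096-58784125, minus strand): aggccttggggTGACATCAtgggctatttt
ATF3, upstream of its most distal start (chr1:212565157-212565333, plus strand): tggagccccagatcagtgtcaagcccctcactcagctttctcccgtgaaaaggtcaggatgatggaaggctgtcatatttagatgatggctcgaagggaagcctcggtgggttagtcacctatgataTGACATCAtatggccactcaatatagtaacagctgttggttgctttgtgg

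The letters TGACGT begin 64 bases before the start in FOS, 60 in FOSB and 66 in FOSL2, and 7.1% of 35116 promoter windows of this length hold them. JUN carries TGACATCA, a form of TGACNTCA, beginning 67 bases before its start, and ATF3 carries the same letters beginning 123 bases before its distal start. JUND holds TGACGTCA beginning 200 bases before its start, and 6.87% of all windows hold TGACNTCA. JUND also holds a separate TGACGT on the opposite strand, 87 to 82 bases before its start. None of the windows matched to members holds TGANTCA (6.57% of all windows) or a CArG box, the SRF site (1.16%). FOS, FOSB and JUNB have a TATAAA beginning 33, 30 and 31 bases before the start, which 10.7% of windows hold. Those of FOS and JUNB lie outside the stretches printed. The window of the second RefSeq start of ATF3 also has a TATAAA, beginning 230 bases before it. ATF3 has 7 annotated start positions in GENCODE 29, and counts per gene do not say which was used.

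AU-rich stretches, to which mRNA decay proteins bind, were counted as ATTTA in the 3' UTR of 1 transcript a gene. FOS had the densest, with 5 in 806 bases (6.2 per kb, above 94.3% of 17884 genes), and its site of 30 bases with the most, shown as such a decay element, is ttgtgtttttaATTTATTTAttaagatgga, with ATTTA in capitals. JUNB followed with 4 per kb, ATF3 had 2.45, JUN 2.33, FOSL2 1.85, FOSL1 1.5, JUND 1.47 and FOSB 1.39, against a median of 1.58 over all genes. The longer form TTATTTATT occurred in FOS and in FOSL2, and in 8.04% of genes.

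Libraries held between 17474404 and 21081942 reads in genes. Levels are given in CPM, a gene's reads scaled to the TMM-adjusted library size, on which 3 reads correspond to 0.145 to 0.17. The reads carry no molecular identifiers, so this floor covers counting error only. The reporter transcript EGFP lay between 2.66 and 4.42 CPM in the 4 non-targeting libraries and between 708 and 1094 CPM in the 4 Tet libraries. The unmapped share was 14.4% and 12.7% in crNT and 8.32% to 9.62% in the other 6 libraries. The sgTet libraries differed most from each other (chi-square per degree of freedom 13.1, against 3.13 to 6.68 in the other groups). All 6 HEK293T markers were detected, at 277 to 429 CPM summed. Of 3 endothelial markers none passed the filter (0 to 0.624 CPM summed). The haematopoietic marker PTPRC had no read. Of 4 fibroblast markers COL1A1 and LUM passed (32.8 to 45.8 CPM summed), while COL1A2 and DCN did not. Among HEK293T markers VIM rose with the Tet guide of both activators (0.46 ± 0.09 with dCasMINI-VPR and 0.35 ± 0.09 with dCas12a-VPR, adjusted p = 0.00281 and 0.0112) and was higher in sgTet than in crTet (0.31 ± 0.09, adjusted p = 0.0353). NEFM was lower in crNT than in crTet or sgNT (0.66 ± 0.15 and 0.62 ± 0.15, adjusted p = 0.00527 and 0.00745), and the part of either in the results was not tested.

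Per kilobase of exon, JUN was the highest member at 301 CPM per kb over the 8 libraries. FOS followed at 146, JUND at 94.5, ATF3 at 54.3, FOSB at 45.7 and JUNB at 30.8. The level of JUNB may be understated, since its strand columns together hold more reads than the count without strand used here. FOSL1 and FOSL2 were far lower, at 2.57 and 1.17 CPM per kb. JUN ranked 85 and FOS 261 among the genes tested by mean CPM (not per length), against 10088 for FOSL2 and 11116 for FOSL1. JUN and FOS together thus hold most of the family's reads in each library, and the values of FOSL2 rest on 118 to 239 reads a library.

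**Figure D1:**
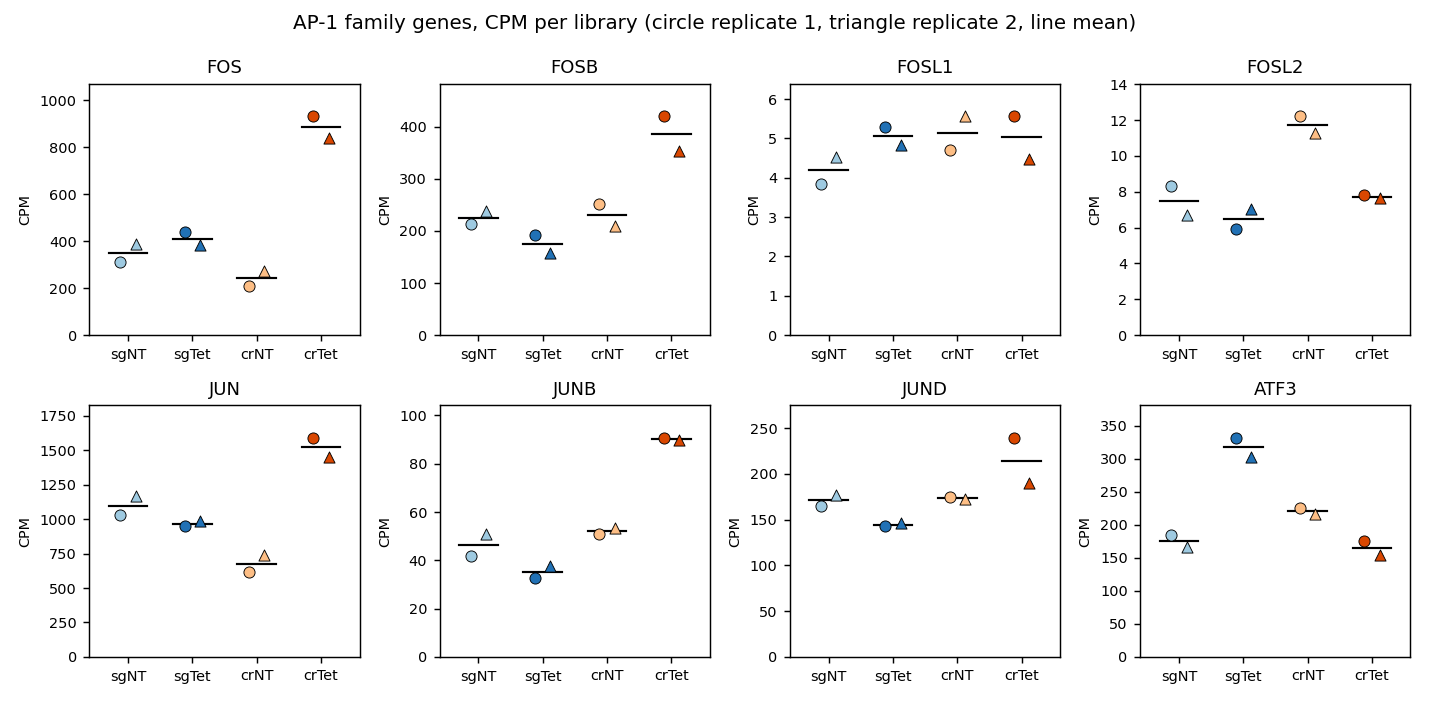
CPM of each AP-1 gene (vertical axis, linear, from 0) in the 8 libraries by group (horizontal axis). Circles are replicate 1, triangles replicate 2 and lines group means. FOS, FOSB, JUN and JUNB are highest in both crTet libraries, ATF3 in both sgTet libraries and FOSL2 in both crNT libraries.

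Of the FOS subfamily, FOS (ENSG00000170345.10, hg38 chromosome 14, 75278774 to 75282230) encodes the founding Fos protein. It stood at 211 and 273 CPM in crNT, 311 and 390 in sgNT, 439 and 382 in sgTet, and 931 and 841 in crTet. Both crTet libraries were above all others, both crNT libraries were below all others, and the sgNT and sgTet libraries overlapped. With dCas12a-VPR the Tet guide raised FOS 3.66-fold (log2 fold change 1.87 ± 0.16 SE, adjusted p = 0.00106, called whichever library was left out). With dCasMINI-VPR the difference was 0.23 ± 0.15 (adjusted p = 0.606).

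FOSB (ENSG00000125740.14, chromosome 19, 45467995 to 45475179) encodes a second Fos protein of early response. Its CPM was 251 and 209 in crNT, 213 and 238 in sgNT, 192 and 157 in sgTet, and 419.7 and 353 in crTet. The crTet libraries stood apart from all others, the sgNT and crNT libraries overlapped, and the sgTet libraries were the lowest pair. FOSB rose 1.68-fold with dCas12a-VPR (0.75 ± 0.12, adjusted p = 0.00219, called whichever library was left out). With dCasMINI-VPR it differed by -0.37 ± 0.12 without passing the test (adjusted p = 0.206), although it did so with no low-count filter (adjusted p = 2.96e-04).

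FOSL1 (ENSG00000175592.9, chromosome 11, 65892049 to 65900573), which encodes FRA1, was low in every library, from 3.84 to 5.56 CPM on 75 to 114 reads. The sgNT mean was 4.19 ± 0.492 CPM, and those of sgTet, crNT and crTet were 5.07 ± 0.326, 5.14 ± 0.602 and 5.03 ± 0.757 (SD, n = 2). It passed no test in the 5 comparisons, with log2 differences between -0.3 and 0.31 and SE of 0.24 to 0.35, so changes of this size were not detectable at this depth.

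FOSL2 (ENSG00000075426.12, chromosome 2, 28392448 to 28417312), which encodes FRA2, had its highest level where FOS had its lowest. It was at 12.2 and 11.3 CPM in crNT, 8.3 and 6.69 in sgNT, 5.9 and 7.02 in sgTet, and 7.81 and 7.64 in crTet. Both crNT libraries were above the other 6, whose range was 5.9 to 8.3 CPM. FOSL2 fell 1.52-fold with the Tet guide of dCas12a-VPR (-0.61 ± 0.19, adjusted p = 0.048). This call stood close to the threshold: it was lost without any 1 of the crNT, crTet or sgNT libraries (adjusted p from 0.0529 to 0.395). It was also lost with DESeq2 (adjusted p = 0.0864), with no low-count filter (adjusted p = 0.0524), and with forward-strand (-0.47, adjusted p = 0.27) and reverse-strand counts (adjusted p = 0.0755). With dCasMINI-VPR the difference was -0.22 ± 0.20 (adjusted p = 0.7).

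Of the JUN subfamily, JUN (ENSG00000177606.8, chromosome 1, 58780788 to 58784327) encodes c-Jun, the main partner of Fos proteins. It was at 617 and 737 CPM in crNT, 1028 and 1166 in sgNT, 947 and 989 in sgTet, and 1588 and 1453 in crTet. No 2 groups overlapped, and crNT and crTet were the extremes. JUN rose 2.25-fold with dCas12a-VPR (1.17 ± 0.08, adjusted p = 3.32e-11, rank 3 of all genes by p). With dCasMINI-VPR it differed by -0.18 ± 0.08 (adjusted p = 0.335).

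JUNB (ENSG00000171223.6, chromosome 19, 12791496 to 12793315) encodes a Jun protein of weaker activity. It was at 51.1 and 53.4 CPM in crNT, 41.7 and 50.8 in sgNT, 32.6 and 37.8 in sgTet, and 90.6 and 90.0 in crTet. The crTet libraries were well above all others and the sgTet libraries below all others. JUNB rose 1.73-fold with dCas12a-VPR (0.79 ± 0.10, adjusted p = 1.23e-05, called whichever library was left out). With dCasMINI-VPR it missed the threshold (-0.39 ± 0.11, adjusted p = 0.0744), and passed it without sgTet replicate 2 (adjusted p = 0.00304), under library size scaling (adjusted p = 0.046) and with no low-count filter (adjusted p = 0.0199). JUNB shares 259 exonic bases with HOOK2 on the opposite strand, and its 8824 reads counted without strand compare with 6169 and 6129 in the strand columns. Those columns together hold more reads, so the CPM of JUNB given here may be understated. HOOK2 itself did not pass either guide test (-0.17 and 0.00, adjusted p = 0.708 and 1).

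JUND (ENSG00000130522.6, chromosome 19, 18279760 to 18281622) encodes the Jun protein of steadier expression and had the smallest dCas12a-VPR guide effect of the JUN genes. It was at 175 and 173 CPM in crNT, 165 and 177 in sgNT, 143 and 146 in sgTet, and 239 and 189.9 in crTet. The sgNT and crNT libraries overlapped, and the crTet pair was the widest apart. JUND rose 1.23-fold with dCas12a-VPR (0.30 ± 0.08, adjusted p = 0.0267). The call was lost without either crNT library (adjusted p = 0.245 and 0.188), without crTet replicate 1 (0.12, adjusted p = 0.543), under library size scaling (adjusted p = 0.061) and with forward-strand counts (adjusted p = 0.0549). With dCasMINI-VPR the difference was -0.24 ± 0.09 (adjusted p = 0.209).

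ATF3 (ENSG00000162772.17, chromosome 1, 212565334 to 212620777) encodes the stress-induced repressor and was highest in another group than FOS and JUN. The sgTet libraries had 331 and 303 CPM, the crNT libraries 225 and 216, the sgNT libraries 184 and 166, and the crTet libraries 175 and 154. The sgTet libraries were the highest, the crNT libraries came next, and sgNT and crTet overlapped at the bottom. ATF3 rose 1.81-fold with dCasMINI-VPR (0.86 ± 0.08, adjusted p = 5.37e-09, rank 5 of all genes by p), and this call held whichever library was left out. With dCas12a-VPR it fell 1.34-fold (-0.42 ± 0.08, adjusted p = 7.89e-04), a call lost without crNT replicate 1 (adjusted p = 0.0535).

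Counted over the family, the Tet guide of dCas12a-VPR raised 5 genes (FOS, FOSB, JUN, JUNB and JUND) and lowered FOSL2 and ATF3. Over all genes tested, 6.32% were called in this comparison, 3.56% higher and 2.75% lower. The members' median was 0.52 against 0.00801 over all genes. The count of 7 became 4 without crNT replicate 1. With dCasMINI-VPR ATF3 was the 1 member called and none was lower, with 0.795% of all genes called, 0.47% higher and 0.325% lower. The members' median there was -0.20 against a median of 0.000278 over all genes. Unadjusted, 5 members had a p under 0.05, and the share of all genes under it was not counted. That share is larger than the 0.795% called, since JUN, at an unadjusted edgeR p of 0.028, ranked 1386 of 16606 genes, against 132 calls. Non-overlap of 2 libraries with 2 is common in these data: 26.3% of genes were higher in both crTet than in both crNT libraries, and 26.3% were lower. For sgTet against sgNT these shares were 20.6% and 20.2%, and 1 member (FOSL1) besides ATF3 was higher in both sgTet libraries, while FOSB, JUN, JUNB and JUND were lower in both.

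**Figure D2:**
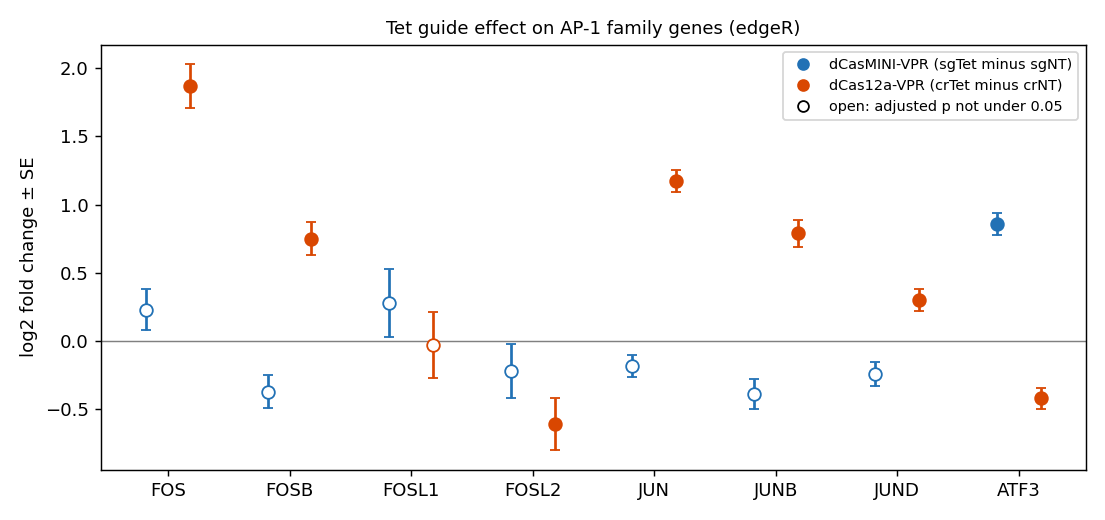
Log2 fold change of the Tet over the non-targeting guide (vertical axis) for each AP-1 gene (horizontal axis), with dCasMINI-VPR in blue and dCas12a-VPR in orange. Bars are ± SE and open points have an adjusted p of 0.05 or more. ATF3 is the only filled blue point, at 0.86, while FOS reaches 1.87 and JUN 1.17 in orange.

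The guide effects were then compared with each other, as the dCasMINI-VPR effect minus the dCas12a-VPR effect. They differed for 6 of the 8 members, in a comparison that called 1.35% of all genes (0.506% higher and 0.843% lower). ATF3 was higher by 1.28 ± 0.11 (adjusted p = 3.12e-09, rank 2 of all genes by p). The effect on JUN was lower by -1.35 ± 0.11 (adjusted p = 4.12e-09) and that on JUNB by -1.18 ± 0.15 (adjusted p = 8.41e-06). FOSB differed by -1.12 ± 0.16 (adjusted p = 0.0062), and these 4 calls held whichever library was left out. FOS differed by -1.64 ± 0.22 (adjusted p = 0.0231), the largest size among members. Its call was lost without either sgTet library (adjusted p = 0.15 and 0.0656) or either crTet library (adjusted p = 0.114 and 0.0896). JUND differed by -0.54 ± 0.12 (adjusted p = 0.0161), lost without sgNT replicate 2, either crNT library or crTet replicate 1 (adjusted p from 0.0774 to 0.192). FOSL1 and FOSL2 did not pass (0.31 ± 0.35 and 0.39 ± 0.28, adjusted p = 0.719 and 0.514).

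The contrast of ATF3 and FOSL2 with FOS and JUN can be read within each library as a ratio of reads, which needs no scaling between libraries. It compares groups for 1 pair of genes and is not a ratio of transcript numbers, since the genes differ in length. FOS had 0.939 and 1.26 reads per ATF3 read in crNT, 1.69 and 2.35 in sgNT, 1.32 and 1.26 in sgTet, and 5.32 and 5.46 in crTet. In the crTet libraries FOS thus far exceeded ATF3, while in the crNT and sgTet libraries the reads of the genes were nearly even. The mean ratio was 1.1 ± 0.228 for the crNT libraries against 5.39 ± 0.103 for crTet, and with dCasMINI-VPR 2.02 ± 0.468 for sgNT against 1.29 ± 0.0446 for sgTet (SD, n = 2). No test was made on ratios.

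JUN had 2.74 and 3.41 reads per ATF3 read in crNT, 5.58 and 7.02 in sgNT, 2.86 and 3.26 in sgTet, and 9.07 and 9.44 in crTet. For this pair sgTet and crNT overlapped at the bottom, and the Tet library pair was lower than the non-targeting pair with dCasMINI-VPR and higher with dCas12a-VPR. JUN had 50.4 and 65 reads per FOSL2 read in crNT, 124 and 174 in sgNT, 161 and 141 in sgTet, and 203 and 190.2 in crTet. Against FOSL2, then, sgNT and sgTet overlapped and crNT stood alone at the bottom. FOS against FOSL2 gave the same order at the ends, with 17.3 and 24.1 in crNT, 37.5 and 58.3 in sgNT, 74.3 and 54.5 in sgTet, and 119 and 110.1 in crTet. FOSL2 and ATF3 also moved apart from each other, since FOSL2 had 0.0534 ± 0.00137 reads per ATF3 read in crNT, 0.0471 ± 0.00357 in crTet, 0.0427 ± 0.00332 in sgNT and 0.0205 ± 0.00378 in sgTet (SD, n = 2). FOS and JUN differed too: FOS had 0.319 ± 0.0227 reads per JUN read in sgNT, 0.356 ± 0.0192 in crNT, 0.425 ± 0.0542 in sgTet and 0.583 ± 0.00529 in crTet (SD, n = 2).

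**Figure D3:**
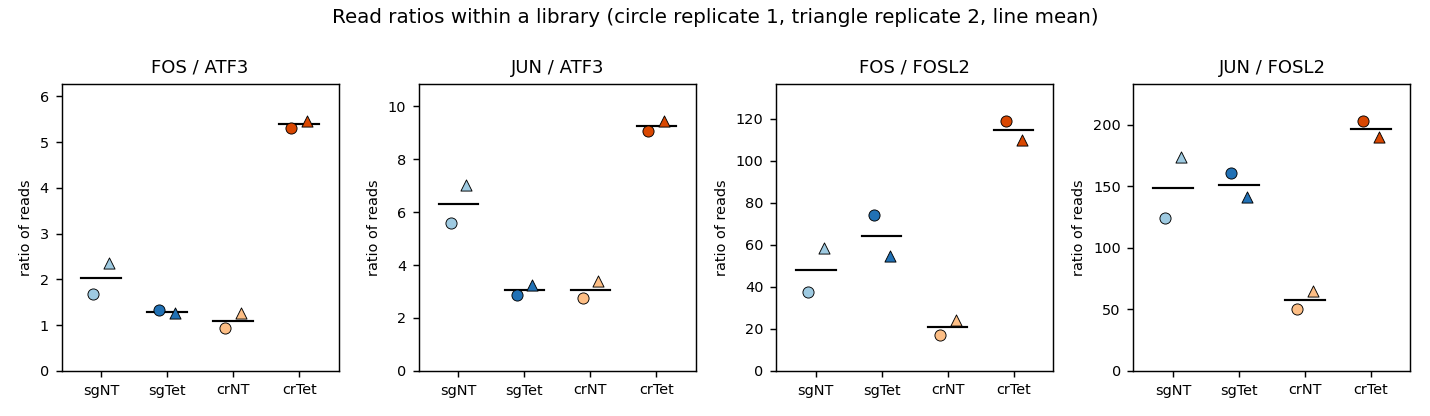
Ratio of reads between members within a library (vertical axis, from 0) by group (horizontal axis), for FOS or JUN over ATF3 or FOSL2. Circles are replicate 1, triangles replicate 2 and lines means. The crTet libraries are highest in all 4 panels, and crNT stands alone at the bottom in the FOSL2 panels, while sgTet lies beside it in the ATF3 panels.

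The family as a whole took 1547 and 1677 CPM in crNT, 1956 and 2199 in sgNT, 2095 and 2027 in sgTet, and 3457 and 3093 in crTet. Of these reads ATF3 made up 4.98% to 5.06% in crTet, 7.55% to 9.43% in sgNT, 12.88% to 14.56% in crNT and 14.95% to 15.81% in sgTet. FOS made up 26.93% and 27.19% in crTet, and between 13.67% and 20.93% in the other 6 libraries. Per kilobase, reads of the FOS genes came to 0.586 and 0.582 of those of the JUN genes in crTet, and to between 0.342 and 0.479 in the other libraries.

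The 2 activators were compared at each kind of guide, as dCasMINI-VPR minus dCas12a-VPR. These comparisons use the same libraries as the guide effects and are not independent of them. The deposited names of the libraries have 1 prefix for each activator, whose meaning is not given, so that anything it marks cannot be told apart from the activator. With non-targeting guides JUN was 1.62-fold higher with dCasMINI-VPR (0.70 ± 0.08, adjusted p = 3.09e-07, called whichever library was left out). FOSL2 was 1.57-fold lower (-0.65 ± 0.19, adjusted p = 0.0303) and ATF3 1.26-fold lower (-0.33 ± 0.08, adjusted p = 0.00554). Leaving out sgNT replicate 2 ended both calls (adjusted p = 0.367 and 0.254), as did leaving out crNT replicate 1 (adjusted p = 0.279 and 0.144), and that of FOSL2 also without crNT replicate 2 (adjusted p = 0.124) or with DESeq2 (adjusted p = 0.0627). With reverse-strand counts neither was called (adjusted p = 0.334 and 0.0604). FOS differed by 0.53 ± 0.16 without passing (adjusted p = 0.0977), and passed with DESeq2 (adjusted p = 0.0466), with no low-count filter (adjusted p = 6.85e-10), without sgNT replicate 1 (0.68, adjusted p = 0.00175) and without crNT replicate 2 (0.73, adjusted p = 1.99e-04). FOSB, JUNB and JUND did not pass (-0.03, -0.18 and -0.03, SE 0.12, 0.10 and 0.08). In this comparison 3 of 8 members were called, against 7.68% of all genes (4.09% higher and 3.6% lower). Over all genes 27.3% were higher in both sgNT than in both crNT libraries and 27.9% lower, as were FOS and JUN (higher) and FOSL1, FOSL2, JUNB and ATF3 (lower). The crNT libraries are also those with the largest unmapped share, whose part in the result was not tested.

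With Tet guides 6 members differed between the activators, 5 lower and 1 higher with dCasMINI-VPR, in a comparison that called 4.28% of all genes (1.68% higher and 2.6% lower). JUNB was 2.57-fold lower (-1.36 ± 0.10, adjusted p = 2.59e-11), FOSB 2.22-fold lower (-1.15 ± 0.12, adjusted p = 6.26e-05), JUN 1.57-fold lower (-0.65 ± 0.08, adjusted p = 1.29e-06) and JUND 1.49-fold lower (-0.57 ± 0.08, adjusted p = 3.32e-05). ATF3 was 1.93-fold higher (0.95 ± 0.08, adjusted p = 1.17e-10). These 5 calls held whichever library was left out. FOS was 2.16-fold lower (-1.11 ± 0.15, adjusted p = 0.0105), but not called without any 1 of the sgTet or crTet libraries (adjusted p from 0.0838 to 0.16). FOSL2 did not pass here (-0.26 ± 0.20, adjusted p = 0.53), although both sgTet libraries were below both crTet libraries, as 22.5% of all genes were (22% were above).

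**Figure D4:**
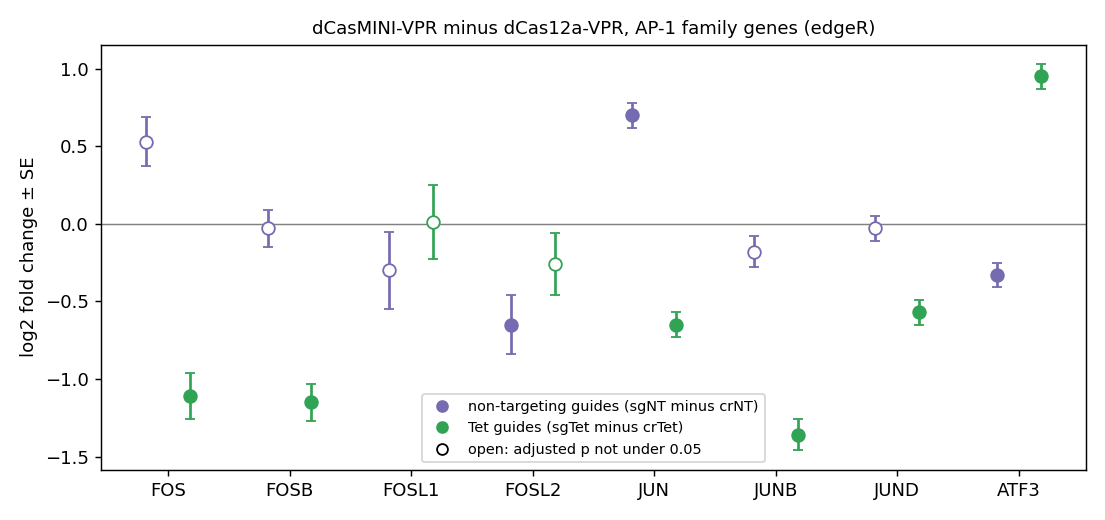
Log2 difference between dCasMINI-VPR and dCas12a-VPR (vertical axis) for each AP-1 gene (horizontal axis), with non-targeting guides in purple and Tet guides in green. Bars are ± SE and open points have an adjusted p of 0.05 or more. JUN is at 0.70 with non-targeting and -0.65 with Tet guides, and ATF3 at -0.33 and 0.95.

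The order of the group means therefore differs between members. For FOS it ran from crNT over sgNT and sgTet to crTet, with neither of the first 2 steps passing its test. For JUN it was crNT, sgTet, sgNT and crTet, where sgTet against sgNT did not pass the test. For FOSB, JUNB and JUND sgTet had the lowest mean and crTet the highest, and neither sgTet against sgNT nor sgNT against crNT passed the test. For ATF3 crTet and sgNT, whose libraries overlapped, were lowest, followed by crNT and sgTet. For FOSL2 crNT was highest and sgTet, sgNT and crTet followed in a range of 6.46 to 7.72 CPM, in which neither sgTet against sgNT nor sgTet against crTet passed the test.

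Among other genes of the pathway, 25 upstream kinases and SRF factors were tested. MAP2K2 and MAP2K3, kinases of MAP kinases, rose with dCas12a-VPR (0.30 ± 0.08, adjusted p = 0.0189, and 0.34 ± 0.10, adjusted p = 0.0258), both calls being lost without any 1 of the crNT or crTet libraries. The list's median was -0.06 against 0.008 over all genes, of which 6.32% were called in this comparison. None was called with dCasMINI-VPR by edgeR or DESeq2, where edgeR called 0.795% of all genes. At an unadjusted p under 0.05, 2 were lower, and the share of all genes under it was not counted. In sgNT against crNT, where 7.68% of all genes were called, MAP2K3 and MAP2K2 were also higher (0.45 ± 0.10 and 0.29 ± 0.08, adjusted p = 0.00198 and 0.0163). The p38 kinase gene MAPK14 was lower there (-0.30 ± 0.09, adjusted p = 0.0358). These 3 calls were each lost without sgNT replicate 2, and without crNT replicate 1 (MAP2K3), crNT replicate 2 (MAP2K2) or either (MAPK14).

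Of 15 tested leucine zipper partners, BATF2, an interferon-induced member of the BATF group, fell with dCas12a-VPR (-0.59 ± 0.14, adjusted p = 0.00606, lost without either crNT library or crTet replicate 2) and the Maf protein gene MAF rose (0.36 ± 0.11, adjusted p = 0.0325, lost without any 1 of the crNT or crTet libraries). With dCasMINI-VPR none of the 15 was called by either tool, and 2 were lower unadjusted. The share of all genes called by edgeR was 0.795% with dCasMINI-VPR and 6.32% with dCas12a-VPR. BATF2 was 9.72 ± 0.776 CPM in sgNT against 30.3 ± 0.181 in crNT (SD, n = 2), a difference called whichever library was left out (-1.64 ± 0.15, adjusted p = 6.13e-10), as was that of sgTet against crTet (-1.02 ± 0.15, adjusted p = 1.36e-05). MAFF was also lower in sgNT than in crNT (-0.61 ± 0.16, adjusted p = 0.0167, lost without sgNT replicate 1 or either crNT library).

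Of 28 textbook AP-1 targets 20 were tested, and MMP1, MMP3, MMP9, MMP10, IL6, IVL, PENK and TH were too low. None rose with either Tet guide by edgeR or DESeq2 (unadjusted 1 with dCasMINI-VPR and 0 with dCas12a-VPR). By edgeR 0.47% of all genes were called higher with dCasMINI-VPR, and 3.56% higher and 2.75% lower with dCas12a-VPR. At these shares a list of 20 genes would hold few calls or none. VEGFA, which encodes an angiogenic growth factor, fell with dCas12a-VPR (-0.34 ± 0.10, adjusted p = 0.0344, lost without any 1 of the sgNT, crNT or crTet libraries). The medians were -0.02 with dCasMINI-VPR and 0.03 with dCas12a-VPR, against 0.000278 and 0.00801 over all genes. In sgNT against crNT, where 3.6% of all genes were called lower, 3 were lower (2 in DESeq2, which gave PLAU no adjusted p), namely VEGFA (-0.47 ± 0.10, adjusted p = 0.00238), the urokinase gene PLAU (-1.72 ± 0.46, adjusted p = 0.0154) and the metallothionein gene MT2A (-0.43 ± 0.11, adjusted p = 0.0158), with a median of -0.43 against 0.000128 over all genes. The PLAU and MT2A calls were lost without either sgNT library or crNT replicate 2 and with reverse-strand counts (PLAU -1.23, adjusted p = 0.0768, and MT2A -0.40, adjusted p = 0.0656), that of PLAU also with forward-strand counts (-0.88, adjusted p = 0.195), and that of VEGFA without crNT replicate 2. In sgTet against crTet the haem oxygenase gene HMOX1 was lower (-0.37 ± 0.11, adjusted p = 0.0451), a call that held in 1 of the 8 fits that each left out a library.

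Of 6 genes for AU-rich element decay and stability, KHSRP (0.29 ± 0.07, adjusted p = 0.00838) and HNRNPD (0.39 ± 0.09, adjusted p = 0.00922) rose with dCas12a-VPR, both lost without either crNT library and HNRNPD also without either crTet library. None was called with dCasMINI-VPR by either tool, or had an unadjusted p under 0.05. Of all genes 3.56% were called higher with dCas12a-VPR and 0.795% in either direction with dCasMINI-VPR. The list's medians were 0.24 with dCas12a-VPR and -0.09 with dCasMINI-VPR, against 0.00801 and 0.000278 over all genes. In sgNT against crNT KHSRP (0.38 ± 0.07, adjusted p = 2.4e-04), HNRNPD (0.43 ± 0.09, adjusted p = 0.00318) and ZFP36L1 (0.35 ± 0.11, adjusted p = 0.0352) were higher. There 4.09% of all genes were called higher, and the list's median was 0.24 against 0.000128 over all genes. The call of KHSRP held whichever library was left out, that of HNRNPD was lost without sgNT replicate 2 or crNT replicate 1, and that of ZFP36L1 without any 1 of these 4 libraries. ZFP36, which encodes the decay factor tristetraprolin, was 6.13 ± 0.455 CPM in sgTet against 11.8 ± 0.735 in crTet (n = 2, -0.94 ± 0.20, adjusted p = 0.00427, lost without crTet replicate 1).

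Genes of the eIF2alpha-ATF4 stress axis were the next list. Of 12 tested none passed in edgeR or DESeq2 with dCasMINI-VPR, where edgeR called 0.795% of all genes. Unadjusted, 0 were higher and 5 lower, and the share of all genes under an unadjusted p of 0.05 was not counted. With dCas12a-VPR the stress sensor gene SESN2 (-0.52 ± 0.07, adjusted p = 4.47e-05) and the pseudokinase gene TRIB3 (-0.52 ± 0.10, adjusted p = 0.00106) fell and CEBPB rose (0.41 ± 0.12, adjusted p = 0.0274). The SESN2 call held whichever library was left out, that of TRIB3 was lost without crNT replicate 1, and that of CEBPB without any 1 of the crNT or crTet libraries. With dCas12a-VPR 3.56% of all genes were called higher and 2.75% lower. The list's medians were -0.09 with dCasMINI-VPR and -0.06 with dCas12a-VPR, against 0.000278 and 0.00801 over all genes. In sgNT against crNT, where 3.6% of all genes were called lower and 4.09% higher, 4 genes of the list were lower and none higher, among them SESN2 (-0.44 ± 0.07, adjusted p = 1.08e-04), the kinase gene EIF2AK2 (-0.59 ± 0.10, adjusted p = 3.12e-04) and TRIB3 (-0.42 ± 0.10, adjusted p = 0.00539, lost without sgNT replicate 2 or crNT replicate 1). In sgTet against crTet 3 genes of the list were lower and none higher, where 2.6% of all genes were called lower and 1.68% higher. They were the phosphatase subunit gene PPP1R15A (-0.57 ± 0.08, adjusted p = 1.43e-05), CEBPB (-0.65 ± 0.12, adjusted p = 4.93e-04) and EIF2AK2 (-0.39 ± 0.09, adjusted p = 0.0189, lost without crTet replicate 1). The list's median there was -0.11 against -0.002 over all genes.

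Of 30 other early response genes, 9 rose and 1 fell with dCas12a-VPR, where 3.56% of all genes were called higher and 2.75% lower (median 0.31 against 0.008 over all genes). With dCasMINI-VPR 1 fell and none rose, where 0.47% of all genes were called higher and 0.325% lower (median -0.05 against 0.000278). None rose there in DESeq2 either, and 2 were higher unadjusted. DUSP1, a MAP kinase phosphatase, rose from 148 ± 20.2 to 374 ± 21.2 CPM in crTet, and HES1, a Notch-responsive repressor, from 23.8 ± 5.12 to 47.1 ± 3.61 CPM (SD, n = 2, adjusted p in edgeR = 6.19e-13 and 6.44e-06). CSRNP1 fell in both (-0.70 ± 0.09 with dCas12a-VPR, adjusted p = 1.12e-05, and -0.37 ± 0.09 with dCasMINI-VPR, adjusted p = 0.0353, the latter lost without either sgNT or crNT library or sgTet replicate 1). These 3 genes also differed between sgNT and crNT, with HES1 at 1.31 ± 0.12, DUSP1 at 0.76 ± 0.08 and CSRNP1 at -0.65 ± 0.09 (adjusted p = 1.38e-09, 6.18e-08 and 4.56e-06), whichever library was left out. With Tet guides 14 of the 30 were lower with dCasMINI-VPR than with dCas12a-VPR and 1 was higher (12 and 1 in DESeq2), where 2.6% of all genes were called lower and 1.68% higher (median -0.42 against -0.002 over all genes). Among them were IER2 (-1.19 ± 0.09), the antiproliferative gene BTG2 (-0.69 ± 0.10) and the nuclear receptor gene NR4A1 (-0.79 ± 0.13), with adjusted p = 8.08e-12, 1.25e-05 and 8.02e-05.

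Genes whose log2 CPM followed a member most closely over the 8 libraries were found among 10161 genes with a mean of at least 3. The libraries of a group share their treatment, so the Pearson r is a description, with no test. It does not measure the size of a change. Among the closest to FOS were RHOB (r = 0.973), TUBB4A (0.955) and OTUD1 (0.955). From crNT to crTet their means went from 558 to 775, 38 to 47.6 and 29.3 to 48.2 CPM, against 242 to 886 for FOS. The closest to JUN were ZFHX2 (0.967), DUSP1 (0.96), ZNRF3 (0.958) and TUB (0.957). From crNT to crTet DUSP1 went from 148 to 374 CPM, against 677 to 1521 for JUN. The others spanned less, with 7.38 to 11.4 for ZFHX2, 36.5 to 45.1 for ZNRF3 and 44.2 to 50.2 for TUB. ATF3 was followed by PPAT (0.974), SETD3 (0.964) and GMPS (0.958), whose levels spanned much less: PPAT ranged from 116 CPM in sgNT, beside 117 in crTet and 128 in crNT, to 140.5 in sgTet. FOSL2 was followed by KIAA1191 (0.995), C3orf52 (0.994), CTH (0.983) and UBFD1 (0.983), all highest in crNT, such as CTH with 67.9 CPM there and 40.4 to 47.3 in the other groups.

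Of the genes beside the members, HOOK2 alone shares exonic bases with one. FOSB overlaps ERCC1 on the opposite strand with no shared exonic base, and ERCC1 did not pass the guide tests (-0.34, adjusted p = 0.118, and 0.09, adjusted p = 0.684). LINC01135, which starts 801 bases from JUN on the other strand, stayed between 0.369 and 0.509 CPM in the group means. FOSL2-AS1 and the sense intronic ENSG00000270640 within FOSL2 had no read in any library, and MIR3188 beside JUND had 1 read.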

How the data were processed

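RNA of 8 libraries in 4 groups was analysed. The authors deposited gene-level read counts without normalization, and the submitters' processing notes name STAR and hg38 (the STAR version is not given in the sources used here). The file IDs are of a later release than GENCODE 29, from which positions and exonic lengths were taken, matched by ID without version. The first of 3 count columns, without strand, was used. The 4 total rows that name no gene (25.3% to 29.9% of reads) were left out. Symbols were matched for all 8 members. Promoters are from RefSeq (GRCh38.p14), with 7 of 8 members matched.

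Counts were fitted with edgeR 4.0.16 (robust quasi-likelihood, TMM, low-count filter by group) (R 4.3.3), the 4 group means being estimated jointly from the 8 libraries. Tests were two-sided, with Benjamini-Hochberg adjustment over 16606 genes and calls at 0.05. Shares of genes called use this threshold, and no share of all genes was counted for an unadjusted p under 0.05. The common biological coefficient of variation was 8.04%. Each SE was taken as |log2 fold change|/√F. The fit was also run on data simulated with the common coefficient of variation for every gene. The outcome is not given here and bears on no result, since the spread of real genes differs. Alternatives were library size scaling, RLE factors, DESeq2 1.42.0, no filter, the strand columns, the compared groups alone, a replicate block and leaving out each library. A group left with 1 library is assumed to vary like the others. Log2 CPM for likeness used a prior count of 2.

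Members, lists and tests were chosen with earlier results of these data known. Named were all members, up to 3 called genes of each list in the guide and activator comparisons, the 4 genes most like each of FOS, JUN, ATF3 and FOSL2, EGFP, and genes overlapping a member or starting divergently within 1000 bases of it. Some genes that this rule names are not reported here.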

Additional observations from a re-analysis of the deposited data

Results flagged for a closer look

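The guide effect differed between the activators by a test of the difference itself (dCasMINI-VPR minus dCas12a-VPR, edgeR, log2) for 6 members and 4 other named genes. The members were FOS (-1.64, from effects of 0.23 and 1.87), FOSB (-1.12, from -0.37 and 0.75), JUN (-1.35, from -0.18 and 1.17), JUNB (-1.18, from -0.39 and 0.79), JUND (-0.54, from -0.24 and 0.30) and ATF3 (1.28, from 0.86 and -0.42). Their adjusted p were 0.0231, 0.0062, 4.12e-09, 8.41e-06, 0.0161 and 3.12e-09.

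The other genes were DUSP1 (-1.25, adjusted p = 1.24e-08), called whichever library was left out, IER2 (-0.65, adjusted p = 0.00469), lost without crNT replicate 1 and with either strand column, CEBPB (-0.73, adjusted p = 0.0196) and HNRNPD (-0.52, adjusted p = 0.0382). CEBPB lost its call without either sgNT or crNT library, sgTet replicate 1 or crTet replicate 2, and HNRNPD without any 1 of the sgNT, crNT or crTet libraries and with RLE factors.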

How the results depend on the processing

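No called fold change of a member or of a named gene of the pathway lists changed direction under the alternatives run, which were not run for EGFP, VIM and NEFM. Calls of FOS, FOSB, JUN and JUNB with dCas12a-VPR and of ATF3 with dCasMINI-VPR held in all 16. Leaving out 1 library in turn, the members called ranged from 1 to 2 for the dCasMINI-VPR guide effect (1 in the fit reported), 4 to 7 for dCas12a-VPR (7), 4 to 6 for the difference (6), 1 to 4 for the activators with non-targeting guides (3) and 5 to 6 with Tet guides (6). Genes called in all ranged from 50 to 1475 (132), 135 to 1965 (1049), 28 to 1835 (224), 333 to 2143 (1276) and 331 to 2150 (711), so the adjusted p of members moved with the library left out. For dCasMINI-VPR the members called were 2 with library size scaling, 3 with no filter and 3 with the replicate block, which added FOSB (-0.38, adjusted p = 0.0225) and JUNB (-0.39, adjusted p = 0.0453). For the activators with non-targeting guides they were 1 with reverse-strand counts.

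Genes called were 276 with no filter for dCasMINI-VPR and 450 for the difference. Forward-strand counts gave 661 for dCas12a-VPR, 106 for the difference and 444 for the activators with Tet guides. With the compared groups alone they were 84, 1785, 2968 and 317 for the guide effects of dCasMINI-VPR and dCas12a-VPR and the activators with non-targeting and Tet guides. The replicate block gave 400 for the difference. Deviations of libraries of the same number correlated by -0.03 to 0.05 over genes. The block rests on the replicate number alone, since the labels do not say how the replicates were made. Whether libraries of the same number share a batch was not tested. Among list genes, a strand column also ended the calls of CSRNP1 with dCasMINI-VPR, of BATF2, MAF, MAP2K3 and VEGFA with dCas12a-VPR, of MAPK14, ZFP36L1, PLAU and MT2A in sgNT against crNT, and of HMOX1 and EIF2AK2 in sgTet against crTet. The causes of these shifts were not tested. Of 64 group levels under other scaling, 3 moved by more than the SD of the group. FOSL1 and FOSL2 rest on 75 to 239 reads a library.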
